A study of Mus musculus with 5 samples.

Results

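The genes described here are the 10 that encode the NF-kappaB subunits and their feedback inhibitors, taken by name from the authors' deposited table: the subunits Rela, Rel, Relb, Nfkb1 and Nfkb2, the classical inhibitors Nfkbia, Nfkbib and Nfkbie, and the regulators Tnfaip3 and Bcl3. All 10 were found among 23951 genes in the table, and all 10 were among the 13264 that the authors had tested. RNA-seq was made of fluorescent beta cells, the insulin-secreting cells of the pancreatic islet, sorted by flow cytometry after islets were taken apart. The p16 group held 3 samples from Ins-rtTA/tet-GFP/tet-p16ink4a mice, whose beta cells expressed both GFP and p16INK4a, an inhibitor of the cyclin D kinases. The GFP group held 2 samples from control Ins-rtTA/tet-GFP mice. Mice of both groups carried the insulin-driven rtTA activator and the tet-GFP reporter and had tetracycline for 10 days, so only tet-p16ink4a parted them by design. The labels state no age or strain. The table gives 1 FPKM value (fragments per kilobase of transcript, scaled to library size) per group and gene, so values per sample, their spread and the depth of each library cannot be given. A gene is said to rise or fall where its q-value in the authors' deposited table, a p-value adjusted over all tested genes, was below 0.05.

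NF-kappaB transcription factors are dimers of the 5 subunits. In resting cells the IkappaB inhibitors, of which Nfkbia encodes the best known, hold the dimers in the cytoplasm. Receptors of cytokines and microbial products activate the IKK kinase, which marks the inhibitors for destruction and frees mainly Rela with the processed product of Nfkb1. This is the canonical branch. In the non-canonical branch the kinase encoded by Map3k14 triggers processing of the Nfkb2 precursor, which then acts with Relb. Several of these genes are themselves NF-kappaB targets, among them Nfkbia and Tnfaip3, which close negative feedback loops. In beta cells the pathway is known for the response to inflammatory cytokines, and in senescent cells for driving secreted inflammatory factors.

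Matches to the NF-kappaB consensus decamer were sought, on both strands, in the 250 bases before the transcription start in RefSeq promoter windows of build GRCm38.p6, for which 8 of the 10 genes had an entry. At least 1 match lay in a window of 5 of the 8: Nfkb2, Rel, Nfkbia, Nfkbie and Tnfaip3. None lay in those of Rela, Nfkbib and Bcl3. Of the 9776 tested genes with a window, 10.8% held a match, and of 32851 windows in all, 7.25% did. Of the 28 tested genes with a window on a list of textbook NF-kappaB targets, 13 held one. That list was drawn from known targets, so its share is no test. Of genes with a window, 13.7% of those called higher with p16 held a match and 13.1% of those called lower. A match describes the letters and is no evidence of binding. The sequences shown are of Tnfaip3, which fell, Nfkbia, which did not pass the test, and Nfkb2, which rose and was added after the values were seen. They run 5′ to 3′ and end at the base before the start, with matches in capitals. They cover chr10:19015411-19015660 on the minus strand for Tnfaip3, chr12:55492648-55492897 on the minus strand for Nfkbia and chr19:46304487-46304736 on the plus strand for Nfkb2, the most upstream of the starts listed where a gene has several.
Tnfaip3: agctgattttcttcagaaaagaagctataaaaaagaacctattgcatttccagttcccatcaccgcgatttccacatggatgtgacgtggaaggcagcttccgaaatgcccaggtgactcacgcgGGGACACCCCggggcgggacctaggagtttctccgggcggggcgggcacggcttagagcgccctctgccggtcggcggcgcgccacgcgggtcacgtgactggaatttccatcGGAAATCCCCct
Nfkbia: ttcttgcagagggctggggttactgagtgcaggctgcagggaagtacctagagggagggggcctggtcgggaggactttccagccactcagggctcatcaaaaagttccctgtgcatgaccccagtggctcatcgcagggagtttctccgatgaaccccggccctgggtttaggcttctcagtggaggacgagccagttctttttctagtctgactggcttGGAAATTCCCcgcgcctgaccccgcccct
Nfkb2: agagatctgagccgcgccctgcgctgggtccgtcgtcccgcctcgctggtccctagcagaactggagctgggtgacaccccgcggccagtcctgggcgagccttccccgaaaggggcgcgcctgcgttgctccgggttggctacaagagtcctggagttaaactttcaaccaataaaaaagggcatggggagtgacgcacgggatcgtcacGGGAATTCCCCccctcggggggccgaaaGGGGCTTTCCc
In Tnfaip3 the matches began 125 and 12 bases before the start, in Nfkbia 29 bases before it. In Nfkb2 overlapping matches began 39 and 38 bases before the start, read as 1 run of capitals, and a further match began 11 bases before it. Windows of the other Nfkb2 starts held 1 match each, and the window of the other Tnfaip3 start held none. In Rel 2 overlapping matches began 92 and 91 bases before the start, and in Nfkbie a match began 106 bases before it. The matches thus stood before a gene that rose, a gene that fell and genes that did not pass.

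Of the 10 genes, 4 rose with p16 (Nfkb2, Relb, Nfkbib and Bcl3) and 1 fell (Tnfaip3) in the authors' deposited table. Over all tested genes 5.42% were called, 4.32% higher and 1.1% lower. The median log2 ratio of the 10 was 0.68, against -0.02 over all tested genes. At a q below 0.01 the calls were Nfkb2, Relb, Nfkbib and Tnfaip3, where 2.78% of all tested genes were called, and at a q below 0.1 Rela was added, where 7.73% were. With p adjusted again over genes of at least 1 or at least 5 FPKM on average, the same 5 genes were called, beside 5.05% and 4.63% of all. No gene of the table passes a Bonferroni adjustment (0%), since the smallest p it holds, 5e-05, times 13264 genes is 0.663.

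**Figure D1:**
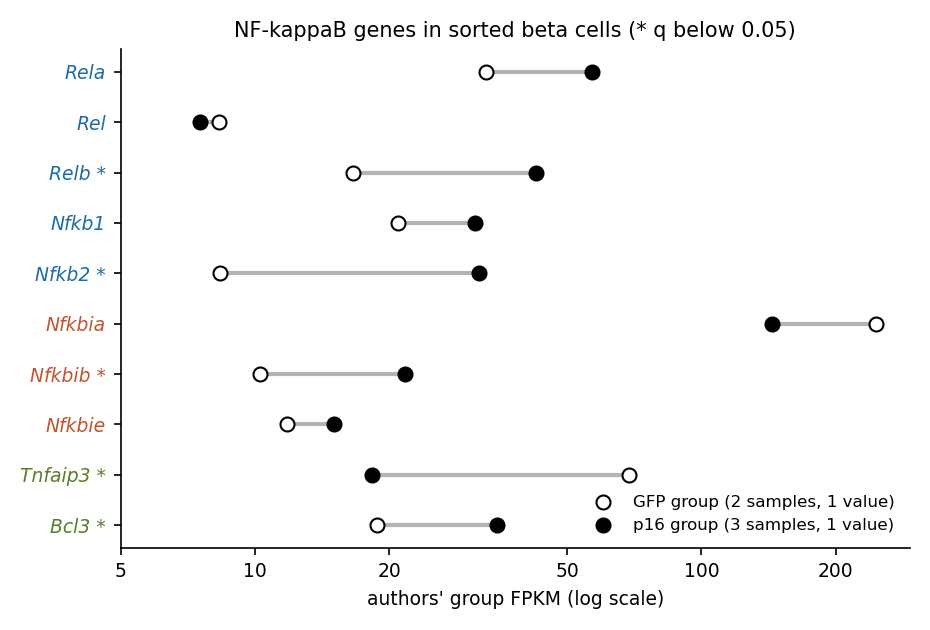
Group FPKM of the 10 genes on a log axis, with open circles for the GFP group, filled circles for the p16 group and an asterisk for a q below 0.05 in the authors' deposited table (blue names, subunits; orange, classical inhibitors; green, Tnfaip3 and Bcl3). Nfkb2 moves from 8.35 to 31.7 FPKM and Tnfaip3 from 68.8 to 18.2 FPKM.

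The non-canonical pair of subunits rose. Nfkb2, whose precursor is processed to the partner of RelB, stood at 8.35 FPKM in the GFP group and 31.7 FPKM in the p16 group, a rise of 3.80-fold (q = 0.00245, authors' deposited table). Its locus is chromosome 19, 46379227 to 46401646, in mm9, a locus that it shares with Psd, which was at 7.20 and 10.9 FPKM, so the split of reads between them is uncertain. Among the 8719 tested genes of at least 5 FPKM on average, 83 had a larger ratio than Nfkb2. Relb, the subunit that pairs with it, stood at 16.6 and 42.7 FPKM, a rise of 2.58-fold (q = 0.00245, authors' deposited table), at chromosome 7, 20191571 to 20214787. In the order of levels over tested genes, Nfkb2 went from percentile 47.1 in the GFP group to 80.4 in the p16 group, and Relb from 65.7 to 85.8.

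Rela and Nfkb1, the main pair of the canonical branch, had higher values with p16 but did not pass. Rela, which carries the main activation domain of the pathway, stood at 32.97 and 56.8 FPKM, a ratio of 1.72 (q = 0.0712, authors' deposited table). Its locus is chromosome 19, 5637490 to 5648130. Nfkb1, which encodes its usual partner, stood at 20.9 and 31.1 FPKM, a ratio of 1.49 (q = 0.225, authors' deposited table), at chromosome 3, 135247619 to 135354511. Rel, a subunit best known from lymphocytes, was the lowest of the 10 in both groups, at 8.33 and 7.52 FPKM (q = 0.881, authors' deposited table), at chromosome 11, 23641729 to 23670970. It alone of the 5 subunits had the lower value with p16.

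Summed over the 5 subunits, FPKM was 87.1 in the GFP group and 169.9 in the p16 group. Nfkb2 and Relb made up 28.6% of that sum with GFP and 43.8% with p16. The level of Nfkb2 per level of Nfkb1 was 0.40 and 1.02, and that of Relb per Rela 0.502 and 0.751. These sums and ratios of group values have no error and no test. Differences between the subunits' own ratios were likewise not tested, so it is not shown that Nfkb2 and Relb rose more than Rela or Nfkb1.

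Among the classical inhibitors, 1 rose and the most abundant had a lower value. Nfkbia, which encodes IkappaBalpha, was the highest of the 10 genes in both groups, with 245.9 FPKM for GFP against 143.6 for p16. Its level with p16 was 0.584 of that with GFP, which did not pass (q = 0.109, authors' deposited table). Its locus is chromosome 12, 56590396 to 56593634. Nfkbib, which encodes IkappaBbeta, stood at 10.3 FPKM with GFP against 21.6, a rise of 2.11-fold (q = 0.00899, authors' deposited table), at chromosome 7, 29541193 to 29551543. Its locus overlaps Gm6537, which was near 0 at 0.03996 and 0.0703 FPKM. Nfkbie, which encodes IkappaBepsilon, stood at 11.8 and 15.0 FPKM and did not reach the threshold (q = 0.595, authors' deposited table), at chromosome 17, 45692665 to 45700117.

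The summed FPKM of the 3 inhibitors was 268.0 with GFP and 180.3 with p16. Nfkbia made up 91.8% of it with GFP and 79.7% with p16. Per unit of summed subunit FPKM the inhibitors stood at 3.08 with GFP and 1.06 with p16, a description of RNA levels with no error. Protein was not measured, and the inhibitors are controlled largely by their destruction.

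Tnfaip3 and Bcl3, regulators outside the classical inhibitors, went opposite ways. Tnfaip3 encodes a ubiquitin-editing enzyme that shuts off signalling above IKK, and it fell 3.77-fold, from 68.8 to 18.2 FPKM (q = 0.00245, authors' deposited table). Its locus is chromosome 10, 18720717 to 18735216. Among tested genes of at least 5 FPKM on average, 36 had a lower ratio. Tnfaip3 was next to Nfkbia in the order of levels in the GFP group and at place 8 of 10 in the p16 group. With 1 value per group, neighbours in these orders cannot be told apart. Bcl3 encodes an IkappaB-like nuclear protein that binds homodimers of the processed Nfkb1 and Nfkb2 products and can activate transcription. Its level went from 18.7 FPKM to 34.9, a rise of 1.86-fold (q = 0.0438, authors' deposited table), at chromosome 7, 20393811 to 20408104. This q is close to the threshold, and the call was lost at a q below 0.01.

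The table gives no error beside a value, so an error was read back from the authors' p. The log2 ratio divided by the normal quantile of p came to between 0.27 and 0.30 for the 7 genes whose p was above the smallest value the table holds. The implied 95% interval of the p16 over GFP ratio was 1.18 to 2.51 for Rela, 1.04 to 2.15 for Nfkb1 and 0.599 to 1.36 for Rel. It was 0.390 to 0.874 for Nfkbia and 0.856 to 1.88 for Nfkbie. These intervals are not adjusted for the number of genes. A change of Rel or Nfkbie within them was not detectable here. For Rela, Nfkb1 and Nfkbia the interval leaves out 1, which restates an unadjusted p below 0.05. With the larger error that the authors' test score implies, the intervals of all 3 include 1: 0.963 to 3.08 for Rela, 0.844 to 2.64 for Nfkb1 and 0.313 to 1.09 for Nfkbia. For Nfkb2, Relb and Tnfaip3, at the smallest p, the interval is the widest that p allows: 1.99 to 7.25, 1.63 to 4.07 and 0.140 to 0.504.

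**Figure D2:**
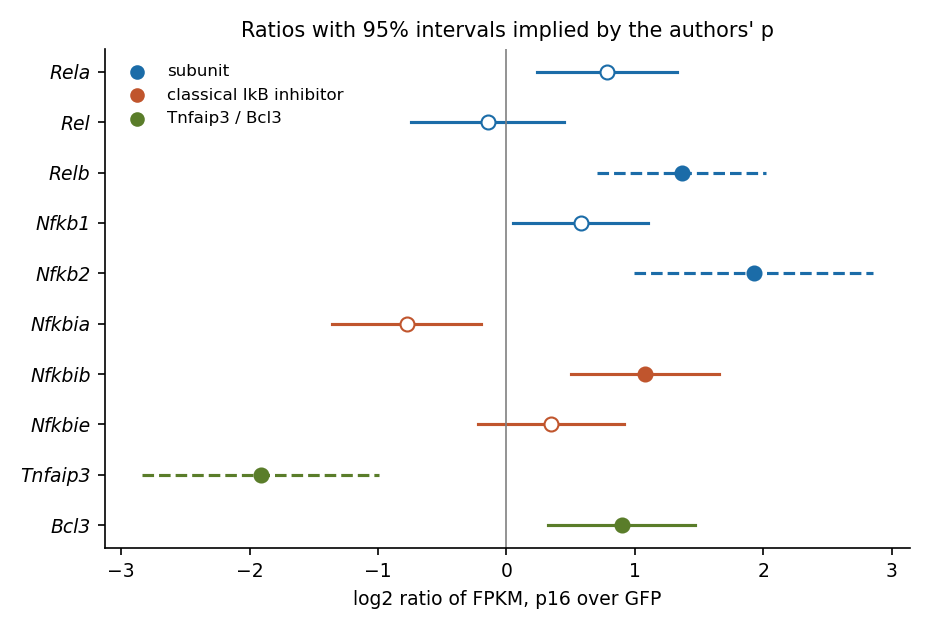
Log2 ratio of FPKM, p16 over GFP, with the 95% interval implied by the authors' p, by role. Filled points have a q below 0.05, and dashed intervals mark the 3 genes at the smallest p, where the interval is an upper limit of its width. The intervals of Rel and Nfkbie cross 0, and those of Rela, Nfkb1 and Nfkbia do not, but would with the larger error implied by the authors' test score.

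The transcript GC content of the genes moved with these calls. The longest transcripts of the 4 genes that rose had 59.4% (Nfkb2), 56.8% (Relb), 58.8% (Nfkbib) and 62.6% (Bcl3) GC, and with Rela, at 59.4%, they lay in the GC-richest quintile of tested genes. In that quintile 8.34% of genes were called higher and the median log2 ratio was 0.31, against 1.60% and -0.32 in the GC-poorest quintile. Tnfaip3, at 47.1% GC, lay in the next to poorest quintile, where 0.838% were called lower. With the median ratio of genes of like GC content and length taken off, the log2 ratio of Nfkb2 went from 1.93 to 1.53, still the highest of the 10, and that of Tnfaip3 from -1.91 to -1.97. That of Nfkb1 went from 0.58 to 0.84. The log2 ratio of Relb went from 1.37 to 0.996, of Nfkbib from 1.08 to 0.76, of Rela from 0.79 to 0.47 and of Bcl3 from 0.90 to 0.52. Rel turned from -0.15 to 0.05. The other genes kept their sign.

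Calls were also read after the same trend was taken off the signed normal quantiles of the authors' p, an alternative added after the data were seen. The genes past the size of quantile that the authors' calls reach, 3.0, were then Nfkbib at 3.04, Tnfaip3 at -4.21 and Nfkb1 at 3.05, where 3.81% of all genes were past it. Nfkb2 at 2.92, Relb at 2.86 and Bcl3 at 2.24 lost their calls. The quantiles of Nfkb2, Relb and Tnfaip3 could not exceed 4.06 before the trend was removed, since the table holds no smaller p, so a lost call of Nfkb2 or Relb does not show that its rise was absent. The part of GC content in the rise of these genes was not tested beyond this.

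**Figure D3:**
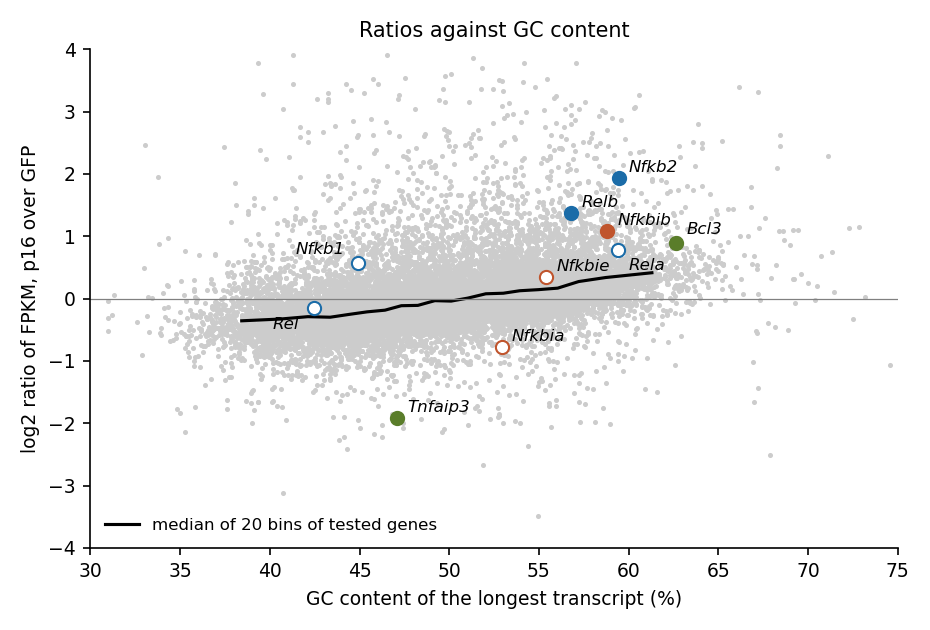
Log2 ratio of FPKM, p16 over GFP, against the GC content of the longest transcript, for 13014 tested genes (grey), with the median of 20 bins (line) and the 10 genes (filled, q below 0.05; colours by role as in the plot of ratios). A further 31 genes lie beyond 4 on the ratio axis; the genes called higher lie above 55% GC and over the rising median, and Tnfaip3 lies far under it.

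Upstream of the 10 genes, the receptor Tlr2 rose, while genes of the IKK complex did not pass. Of 24 listed receptors 16 were tested, of which 4 rose and none fell, with a median log2 ratio of 0.64. Over all tested genes 4.32% were called higher and 1.1% lower. The receptors that rose were Tlr2, which senses bacterial lipopeptides, from 37.1 to 92.4 FPKM (q = 0.00245, authors' deposited table), Tnfrsf12a, a receptor of the TNF family, from 10.5 to 62.2 FPKM, Tnfrsf1b, from 0.253 to 1.07 FPKM, and Il1rl1, from 0.153 to 0.547 FPKM. The locus of Tnfrsf12a is shared in the table with Hcfc1r1, at 31.5 and 46.9 FPKM, Thoc6 and Ccdc64b, so the split of reads is uncertain. Tnfrsf1b and Il1rl1 stood near or below 1 FPKM in both groups, where the unknown depth limits their reading. Il1r1, the interleukin-1 receptor, was the most abundant receptor listed, at 207.5 and 190.2 FPKM, and did not reach the threshold (q = 0.894, authors' deposited table).

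Of 39 genes of the IKK and adaptor module 38 were tested, of which 4 rose and 1 fell, with a median log2 ratio of 0.07. These counts stand beside 4.32% higher and 1.1% lower over all tested genes. Those that rose were the adaptor kinases Ripk2, from 6.69 to 13.95 FPKM, and Irak2, from 3.70 to 7.75 FPKM, the ubiquitin ligase Birc3, from 24.6 to 45.4 FPKM, and the scaffold Card10, from 0.160 to 0.583 FPKM. Map3k8, a kinase that binds the Nfkb1 precursor, fell from 8.66 to 3.93 FPKM (q = 0.0284, authors' deposited table). The IKK subunits themselves did not pass: Chuk stood at 33.6 and 27.3 FPKM, Ikbkb at 9.30 and 9.04 FPKM, and Ikbkg at 9.11 and 6.64 FPKM. Map3k14, the kinase of the non-canonical branch, stood at 5.999 and 4.62 FPKM (q = 0.579, authors' deposited table), and Traf3, which keeps that kinase low, at 10.1 and 16.9 FPKM (q = 0.104, authors' deposited table). The IKK subunits, Map3k14, Traf3 and Il1r1 were named after their values were seen.

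Further feedback regulators went both ways, as Tnfaip3 and Bcl3 did. Of 23 listed, 18 were tested, of which 2 rose and 2 fell, with a median log2 ratio of -0.15. The shares over all tested genes were 4.32% higher and 1.1% lower, and the list counts are small. Nfkbiz, which encodes an inducible nuclear IkappaB protein, fell from 143.3 to 59.4 FPKM, and Zfp36, which destabilizes cytokine mRNA, from 158.1 to 50.8 FPKM (both q = 0.00245, authors' deposited table). Tnip1, which encodes a binding partner of the Tnfaip3 enzyme, rose from 16.1 to 41.4 FPKM, and N4bp1 from 9.55 to 18.7 FPKM. The deubiquitinase Cyld did not pass, at 16.8 and 14.8 FPKM (q = 0.808, authors' deposited table), and was named after its values were seen.

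Textbook target genes also split. Of 60 listed, 40 were tested, of which 10 rose and 5 fell, with a median log2 ratio of 0.49. All tested genes had 4.32% called higher and 1.1% called lower. The rule for naming gave the chemokine gene Cxcl10, from 11.3 to 46.1 FPKM, the urokinase receptor Plaur, from 0.230 to 2.59 FPKM, and the cyclin Ccnd1, from 32.7 to 72.7 FPKM, as the genes that rose most by log2(FPKM + 1). Irf7, Cxcl16, Icam1, Sdc4, Cd83, C3 and Ccl5 were also called higher, some with a larger plain ratio than Ccnd1, such as Cxcl16 at 3.16-fold against 2.23-fold, and Ccl5 was listed at 0 in the GFP group and 0.906 FPKM with p16. Egr1, Ier2 and Ier3 fell, to 61.3, 44.7 and 10.8 FPKM, as did Junb and Irf1. Of the 5 targets that fell, all but Irf1 are also on a list of early genes known to be induced when tissue is taken apart. Among the 35 tested targets not on that list, 10 rose and 1 fell. Of the 34 tested genes on that list 23 fell and none rose. Leaving it out could thus take away called falls but no called rise, so this split is no test. The target list also leaves out the 10 genes themselves, among them Nfkbia and Tnfaip3. The cytokine genes Il1b, Tnf and Il6 were low, at 1.32 and 2.42, 0.299 and 0.281, and 0.114 and 0.0124 FPKM, and did not pass or were not tested. They, like the targets outside the rule for naming, were chosen after their values were seen.

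Of 20 coactivators, corepressors and modifiers of the subunits, 19 were tested, of which 2 rose and none fell, with a median log2 ratio of 0.01. Such small counts stand beside 4.32% higher and 1.1% lower over all tested genes.

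**Figure D4:**
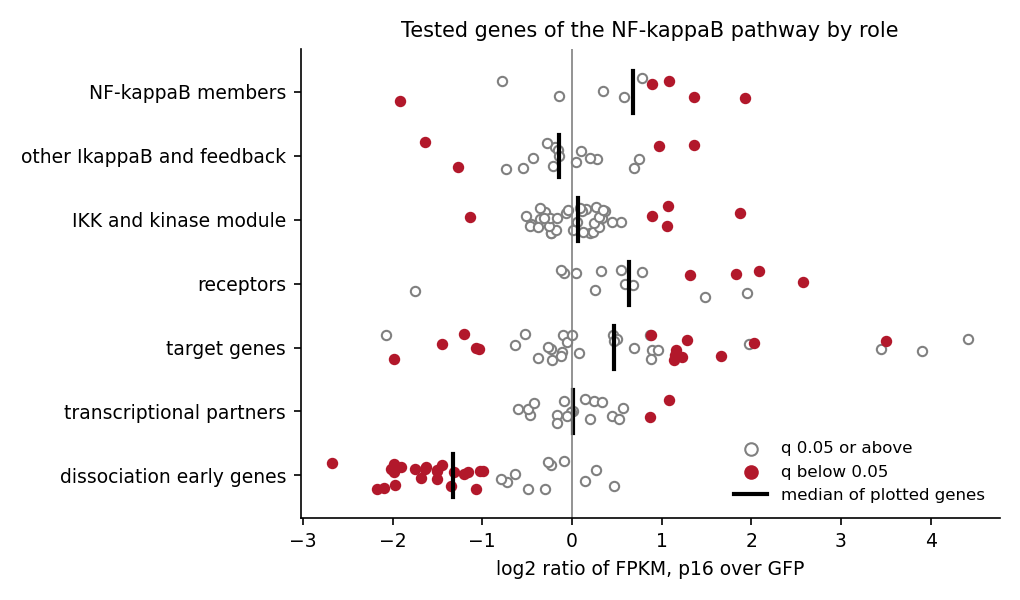
Log2 ratio of FPKM, p16 over GFP, for the tested genes of each list above 0 in both groups, with red points for a q below 0.05 in the authors' deposited table and bars at the median of the points. The NF-kappaB genes have calls on both sides of 0, and the early genes lie mostly below it, with 23 of 34 called lower.

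The fall of Tnfaip3 and Nfkbiz stood beside that of the early genes, a list that holds Zfp36 as well. Of 34 tested early genes 23 fell and none rose, with a median log2 ratio of -1.33, where 1.1% of all tested genes were called lower and 4.32% higher. Fos, Gem and Btg2 fell 6.36-fold, 4.51-fold and 4.26-fold, and Egr1, Dusp1 and Dnajb1 fell to 61.3, 41.1 and 45.7 FPKM. The falls of the called early genes ran from 1.99-fold for Nr4a2 to 6.36-fold for Fos, a wide span that holds the 3.77-fold fall of Tnfaip3. The part of cell handling in the level of Tnfaip3 was not tested.

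Other cells of the islet could add NF-kappaB transcripts, so their markers were read in the same table. Calls of markers stand beside 4.32% higher and 1.1% lower over all tested genes. In sorted cells measured in bulk, fewer cells of a type and less RNA per cell cannot be told apart. Markers of the labelled beta cells were abundant: G6pc2 stood at 3012 and 2327 FPKM, Slc30a8 at 648.1 and 405.4 FPKM, and Ucn3 at 366.4 and 226.8 FPKM, 3 genes named after their values were seen. Slc2a2, which encodes the main glucose transporter of mouse beta cells, fell from 401.7 to 205.2 FPKM. Ins1, Ins2 and Iapp were listed at 0 with both transgenes and with GFP alone, marked as having too many fragments to quantify, and so was Chga with p16. The induced gene, Cdkn2a, stood at 0.657 and 34.6 FPKM (q = 0.00245, authors' deposited table).

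Most macrophage and leukocyte markers were near 0. Of 20 listed, 17 were below 0.5 FPKM with GFP and 15 with p16, and their sums were 41.4 and 49.6 FPKM, of which C1qa gave 25.9 and 35.1. Without C1qa the sums were 15.4 and 14.4 FPKM. C1qb, at 0.174 and 0.0109 FPKM, and C1qc, at 0.105 and 0.0549 FPKM, were near 0 and were named after their values were seen. Ptprc, which marks all leukocytes, was at 0.00329 and 0.0269 FPKM, and Cd3e, a marker of T cells, was listed at 0 in both groups. Cd68 rose from 0.229 to 1.95 FPKM (q = 0.0498, authors' deposited table). Of 12 endothelial markers 11 were below 0.5 FPKM in both groups, with sums of 3.22 and 4.09 FPKM, of which Esam gave 2.49 and 3.04. Of 12 stellate and fibroblast markers 11 were below 0.5 FPKM with GFP and 8 with p16, with sums of 1.82 and 15.1 FPKM. Col1a2, Dcn and Vim rose, to 1.60, 2.29 and 9.18 FPKM, and Des was listed at 0 in both groups.

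Markers of the other endocrine cells were abundant and moved in the same direction as Nfkb2 and Relb. Of 10 listed, 8 were tested and 4 rose, among them Sst, Ppy and Pyy, with sums over the 10 of 3975 and 6678 FPKM. Of 14 acinar and duct markers 12 were tested, of which Cldn4, Spp1 and Sox9 rose and Krt19 fell, with sums of 306.8 and 679.4 FPKM. Cldn4 alone gave 143.3 and 486.5 of these, and without it the sums were 163.5 and 192.9 FPKM. The part of alpha, delta, PP, duct or stromal cells in the levels of the NF-kappaB genes was not tested.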

How the data were processed

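RNA-seq of sorted beta cells in 5 samples, 3 in the p16 and 2 in the GFP group, was read from 1 table. The authors used TopHat2, Cuffnorm and Cuffdiff with mm9, per the submitters' processing notes; for versions, annotation and strand, nothing was given in the sources used. The deposited FPKM values are 1 per group and gene, and the test score, p-value and q-value per gene are those the authors deposited. Depth per sample is unknown. FPKM is no count, so no count model was run, and limma, planned for values per sample, could not be fitted.

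Log2 ratios were recomputed without a pseudocount. Benjamini-Hochberg adjustment of the deposited p-values over 13264 tested genes gave the deposited q-values within 5.23e-07. The score gave the deposited p on the normal scale, within 0.01, for 5.15% of genes, so the error planned from the score was taken from p instead. Starts had 1 added, since 291 of 306 microRNA loci then matched in length. Transcript GC content and length were those of the longest GENCODE M21 model, matched for 99.0% of tested genes, in 20 by 4 bins. Its build is not mm9, so no coordinates were taken from it. Python 3.11.15, numpy 2.4.6, pandas 2.3.3 and scipy 1.17.1 were used, and the adjustment and bin correction were tested on simulated data.

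The 10 genes and all lists were chosen with earlier results of these data known. Named genes were all 10, up to 6 called genes of largest change on the log2(FPKM + 1) scale per list (or the 2 of highest FPKM where a list had fewer than 2 calls), and called or most abundant markers. Some genes that this rule selects are not reported here. Protein sequences were planned and are not used here. The p-values are those of the authors' Cuffdiff test, and how that test models error was not checked here. They are not read as a measure of each gene's own spread among these samples, which may be technical in part.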

Additional observations from a re-analysis of the deposited data

How the results depend on the processing

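With pseudocounts of 0.1, 1 and 5 FPKM, median, upper quartile or quantile scaling, and the median of genes of like mean FPKM removed, each of the 10 genes kept its direction and moved by less than its implied error. These scalings shifted the median of all genes by at most 0.04 on the log2 scale. With the GC and length trend removed, 5 of 10 moved by more than that or changed sign (Rela, Relb, Nfkbib, Bcl3 and Rel). The implied errors of Nfkb2, Relb and Tnfaip3 are upper limits, so this mark is lenient for them. The log2 ratio of Nfkb2 went from 1.93 to 1.53 with the trend removed and to 1.46 with a pseudocount of 5 FPKM, and counts as unmoved only against that limit. With that trend removed from the quantiles, 2 of the 10 were called higher instead of 4. Among the lists, the IKK module then had 0 lower instead of 1, receptors 1 lower instead of 0 and partners 0 higher instead of 2. In that setting 3.81% of all genes were past the threshold. At a q below 0.01, where 2.78% of all tested genes were called, the IKK module had 0 higher and 0 lower instead of 4 and 1. Receptors then had 2 higher instead of 4, targets 4 higher and 2 lower instead of 10 and 5, and partners 1 higher instead of 2. At a q below 0.1, where 7.73% of all tested genes were called, receptors had 1 lower instead of 0. With p adjusted over genes of at least 1 or 5 FPKM receptors had 2 higher, and at 5 FPKM targets had 5 higher instead of 10. Of all genes kept, 5.05% and 4.63% were called at these 2 levels. Under Bonferroni every count was 0, by construction. Errors from the score were 0.42 to 0.46, against 0.27 to 0.30 from p. Leaving out samples was not run, since the table holds no values per sample. No paired analysis was possible because the table gives 1 value per group. Depth is unknown and limits genes near 0.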

Other observations

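Relb and Bcl3 lie near each other on chromosome 7, 179.0 kb apart in mm9, so the genes between them were read as well, a choice made after the values of both were seen. Relb and Bcl3 rose 2.58-fold and 1.86-fold. Of 9 genes listed between them 6 were tested, and none had a q below 0.05 (authors' deposited table). Only 5.42% of all tested genes reached that q, so the lack of a call among 6 genes does not set this stretch apart. All 6 had the higher value with p16, with log2 ratios from 0.15 for Clptm1 to 0.51 for Pvrl2. Clptm1, next to Relb, stood at 23.7 and 26.3 FPKM (q = 0.853, authors' deposited table). Pvrl2 stood at 10.8 and 15.4 FPKM (q = 0.388, authors' deposited table). Apoe, the apolipoprotein gene in the same stretch, stood at 1.74 and 2.05 FPKM (q = 0.88, authors' deposited table).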
